A study of Oryza sativa with 6 samples.

Results

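A small number of probe sets gave a clear array signal from rice leaves of one line and a signal at the dim end of the scale in the other. Members are probe sets with a signal of 80 or more on all 3 arrays of one line and of 25 or less on all 3 arrays of the other, where signal is the MAS5 intensity on a linear scale. Of 57194 probe sets, counted without control and reporter probe sets, 54 met this rule (0.0944%). Of these, 30 were bright only in KMD and 24 only in XS11. These are 0.0525% and 0.042% of all probe sets, shares that depend on the thresholds and the scaling of the arrays. The members were thus chosen by their array signals in this same contrast, so the differences of the members are given as a description, with no test. A further 5 probe sets met both thresholds but belong to genes in stretches that the rule leaves out, 2 of them bright in KMD and 3 in XS11. Among the array's reporter probe sets, also left out, 3 met the thresholds with KMD bright.

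The arrays read total RNA from leaves of 30-day rice seedlings. Seedlings of both lines grew in pots in a climate chamber with light and dark cycles. XS11 is the parent cultivar Xiushui 11, labelled wildtype, and KMD is a transgenic line of the same cultivar, which is known as a Bt rice with a cry1Ab gene of Bacillus thuringiensis that the labels do not mention. Each line had 3 arrays, called biological replicates in the labels, which do not say how many plants each array stands for. The p-values below therefore measure only the spread between these arrays, and KMD is 1 transgenic line. The study set the lines side by side to look for unintended effects in KMD. The labels give neither the promoter nor the insertion site of the transgene.

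As background, a probe set is a group of short probes against 1 stretch of a transcript, and MAS5 sets the probes that match perfectly against partner probes with a mismatch. Its signal therefore depends on the amount of the transcript and on how well the probes match it. A gene may have several probe sets, which read different stretches or share some of their probes. In total leaf RNA, fewer cells that make a transcript and less transcript per cell cannot be told apart. A low signal is not proof that a transcript is absent. Sequence differences between the lines under the probes were not tested.

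The 6 arrays were alike in level, with median signals from 35.5 to 38.6. Of 18 listed leaf markers 7 could be matched, and all 7 gave mean signals of at least 77.9 in KMD and 194 in XS11. RBCS, the small subunit of Rubisco, read 16012 in KMD and 16111 in XS11, and CAB2R, a light-harvesting protein, read 10429 and 10598 (means of 3 arrays). PORA, a protochlorophyllide reductase of chlorophyll synthesis, was the lowest and fell from 194 in XS11 to 77.9 in KMD (difference -1.20, limma adjusted p = 2.68e-09), while LFNR1 and RCA fell by 0.28 and 0.18 on the log2 scale. The 7 summed to 52583 to 53735 in KMD and 56188 to 56578 in XS11. Of the markers of other organs, 5 root genes summed to 443 to 467 in KMD and 521 to 602 in XS11, and 9 seed genes to 1133 to 1136 and 1195 to 1247. LSI2 and NAS1 of the root list were near the dim end in both lines, at 11.8 and 14.3 in KMD, and so was the seed glutelin GLUA1, at 5.94 in KMD and 5.82 in XS11. Others of these lists gave a clear signal, with LSI1 at 194 in KMD and 285 in XS11, PHO1-2 at 189 and 175, SBE1 at 737 and 886 and WAXY at 174 and 117. The 3 matched pollen or anther genes summed to 141 to 174 in KMD and 138 to 145 in XS11. Control transcripts moved with the lines too. Added poly-A control transcripts were higher in KMD on all 36 probe sets that read them, with a mean log2 difference of 0.62. Several of these probe sets read the same added transcript, so they are not separate cases. The ratio of 3' to 5' signal was 5.64 to 5.91 in KMD against 4.30 to 4.88 in XS11 for actin, and 3.44 to 3.54 against 2.61 to 2.99 for GAPDH. The part of these shifts in the results below was not tested.

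Differences are given as KMD minus XS11 as log2 of the signal plus 11.17. That pseudocount was set at the 10th percentile of the array values, and it understates the change of dim probe sets. On it, the members bright in KMD had a median difference of 2.66, with a range from 1.79 to 5.43, and those bright in XS11 a median of -3.06, with a range from -6.32 to -1.47. The median over all 34404 tested probe sets was 0.0017. All 54 members passed the filter on dim signal, and in the limma fit over the tested probe sets 39.7% were called at an adjusted p under 0.05, 18.1% higher in KMD and 21.6% higher in XS11. Absolute differences of 4 or more were found in 6 members bright in KMD and 6 bright in XS11.

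Scaling the arrays to equal spike-in signal, in place of the deposited level, left 18 probe sets bright in KMD and gave 42 bright in XS11, so the share bright in KMD went from 55.6% to 30.0%. The lean towards KMD in the count did not hold on that scale. Among single members the smallest absolute difference under any setting tried was 1.17 on the log2 scale. The gap that the rule asks for fixes their direction, so this says nothing of stability.

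**Figure D1:**
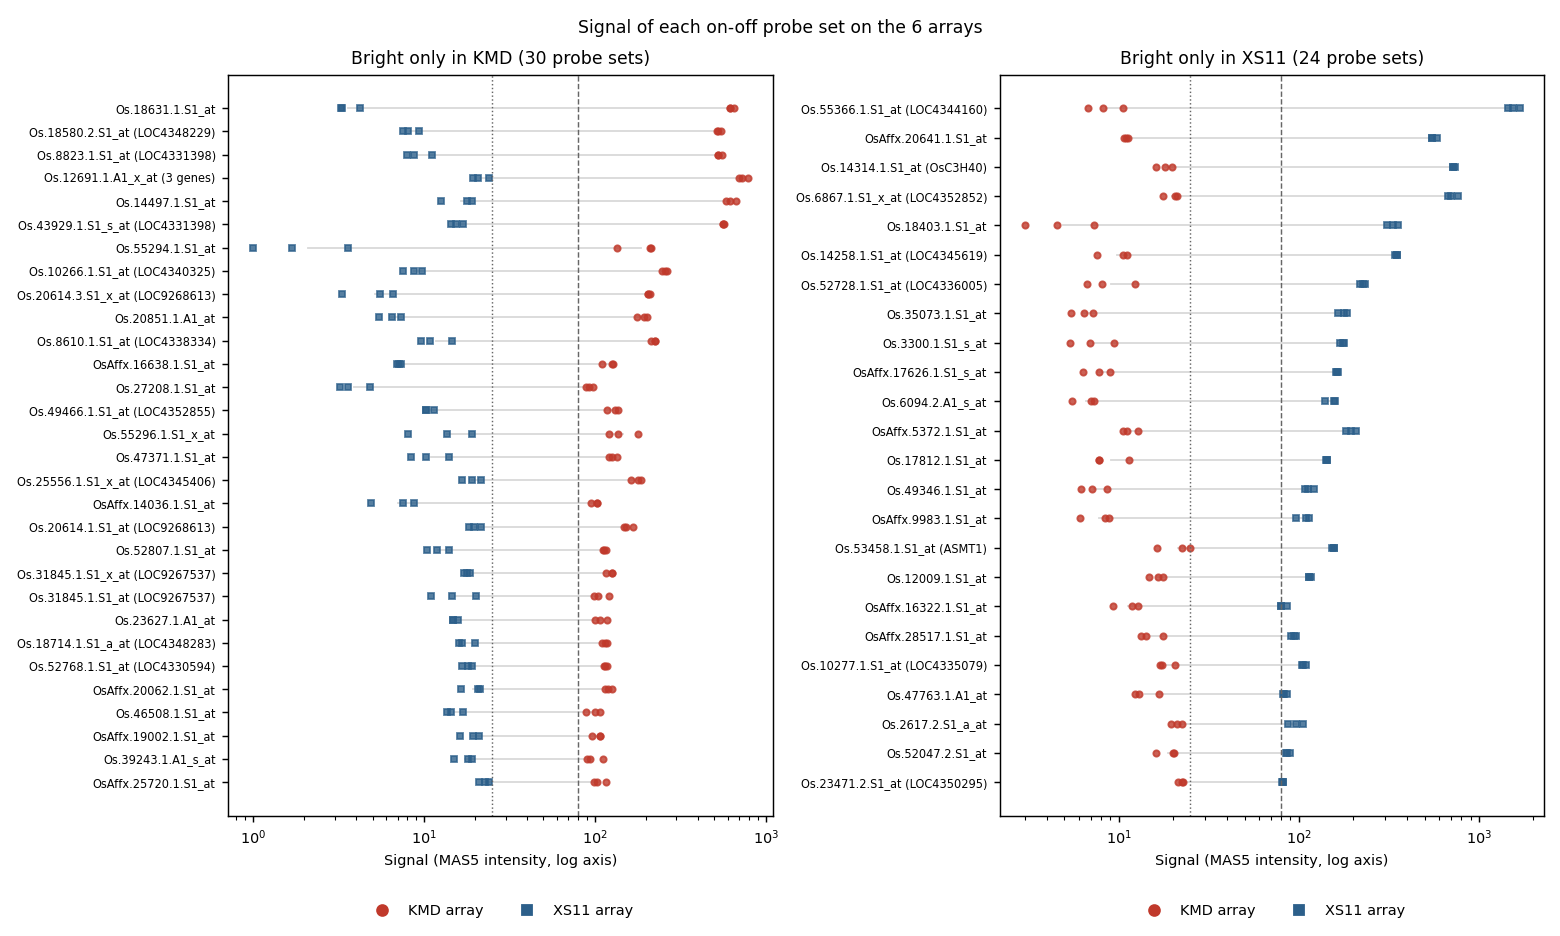
Signal of each on-off probe set on each array, on a log axis, with KMD arrays as circles and XS11 arrays as squares and a grey line between the line means. The dashed line marks 80 and the dotted line 25. The 3 arrays of a line lie close together for most members, and the dim values run from 1.00 to 24.9.

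To place the dim side of these pairs, the 64 reporter probe sets were read in XS11. They were designed against marker and vector sequences used to transform plants. Their median signal there was 16.5 and their 90th percentile 31.8. The dim-line mean was at or under that median in 36 of the 54 members. The upper limit of 25 in the rule already places every dim array below that 90th percentile. The dim-line mean ran from 2.10 to 22.5 in members bright in KMD and from 4.93 to 22.3 in those bright in XS11. Replicate arrays of the bright line were close, with a median coefficient of variation of 5.73% for members bright in KMD and 3.08% for those bright in XS11. The widest spread was that of Os.55294.1.S1_at, which no gene is assigned to. It read 210, 134 and 213 in KMD and 3.61, 1.00 and 1.69 in XS11. KMD replicate 2 was lower than its partners, and the rule fixes that the lines stay apart.

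**Figure D2:**
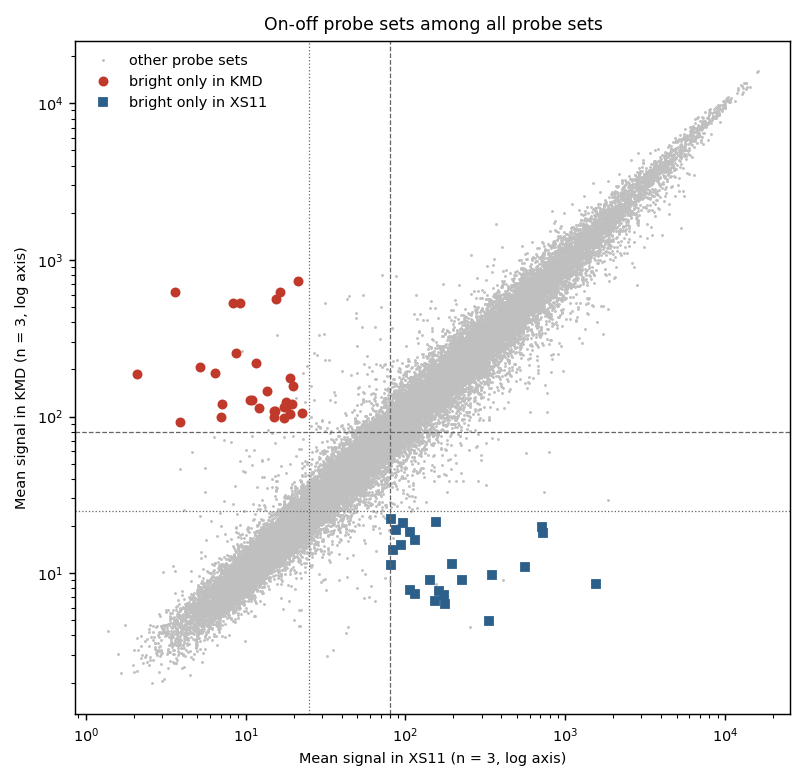
Mean signal in KMD against mean signal in XS11 for 57194 probe sets (n = 3 arrays each), on log axes, with the on-off probe sets in colour and the thresholds of 80 (dashed) and 25 (dotted). Most probe sets lie along the diagonal, while the 30 members bright in KMD and the 24 bright in XS11 fill opposite corners. Grey points inside a corner are the probe sets of left-out genes or ones with any array that missed a threshold.

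Only 2 members carry a gene with an informative name. OsC3H40 (LOC4340263, chromosome 6) encodes a zinc finger protein of the CCCH type, a family whose members bind nucleic acids, many of them RNA, and act in mRNA processing and decay and in plant stress and developmental responses. Its probe set Os.14314.1.S1_at read 735, 723 and 717 in XS11. In KMD it read 19.7, 16.0 and 18.2, and the rule asks for a gap between the lines in every member. The difference was -4.66 (SE 0.06, n = 3 arrays per line). It is the only probe set assigned to the gene, so no other reading of OsC3H40 was at hand.

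The other tested CCCH genes did not share this pattern. Of 53 CCCH genes in the naming table, 43 were tested through their brightest probe set. Without OsC3H40, 13 of 42 rose in KMD, 9 fell and 20 did not pass limma's test with Benjamini-Hochberg adjustment over all probe sets. That is 52.4% called, where 56.2% of all 14790 genes read in the same way were called (23.2% higher in KMD and 33.0% higher in XS11). Their differences ran from -0.77 to 0.87, with a median of 0.06, against -0.03 for all genes.

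OsC3H54 rose most of the other CCCH genes, from 404, 367 and 351 in XS11 to 701, 661 and 711 in KMD (difference 0.87, SE 0.05, limma adjusted p = 2.34e-08). OsC3H44 rose from a mean of 130 to 212 (0.67, adjusted p = 4.27e-06 in limma). OsC3H2, also listed as OsDOS, which is known to delay leaf senescence in rice, fell from 163, 167 and 159 to 91.6, 87.1 and 93.4 (-0.77, limma adjusted p = 2.89e-07). OsC3H35 fell from a mean of 280 to 176 (-0.64, limma adjusted p = 1.37e-06). In all 4 of these genes both lines gave signals above 80, whereas OsC3H40 was near the dim end in KMD. On the spike-in scale, shifted by 0.62, only the rises of OsC3H54 and OsC3H44 stayed above 0, at 0.25 and 0.047. The value of OsC3H44 there is smaller than its SE of 0.07 on the deposited scale, so its direction is not settled.

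**Figure D3:**
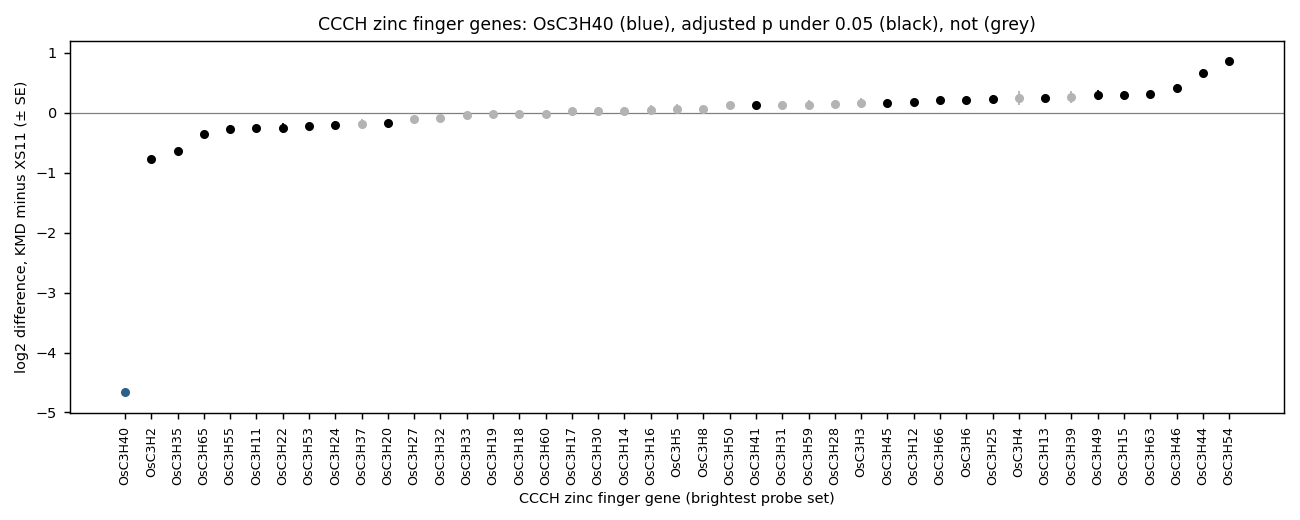
Difference between the lines (KMD minus XS11, log2 scale with the pseudocount, ± SE from limma) for 43 CCCH zinc finger genes, each read by its brightest probe set. OsC3H40 stands at -4.66, and the other 42 lie between -0.77 and 0.87.

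The lists of S-adenosylmethionine synthases and acireductone dioxygenases, enzymes around methionine, held no member. Of the 3 synthase genes tested 1 rose and 2 fell, and of the 3 dioxygenase genes tested 2 rose and 1 did not pass, beside 23.2% of all genes higher in KMD and 33.0% higher in XS11. The larger of the dioxygenase rises was 3.21 in LOC4348646 (listed as ARD1), and 2.59 on the spike-in scale. LOC4348646 read 604, 609 and 577 in KMD and 54.8, 55.7 and 52.5 in XS11, above the dim threshold. The smaller of the dioxygenase rises, 0.18 in LOC4331707 (listed as ARD2), turned to -0.44 on the spike-in scale. METK3 read 337, 333 and 341 in KMD and 28.7, 35.7 and 27.8 in XS11, so it missed the dim threshold of 25 on each XS11 array.

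ASMT1 (LOC4346795, chromosome 9) is the second named gene. It encodes N-acetylserotonin methyltransferase, the enzyme of the last step of melatonin synthesis. Os.53458.1.S1_at, its only probe set, read 156, 152 and 157 in XS11 and 16.3, 24.9 and 22.5 in KMD (difference -2.37, SE 0.10). The lines did not overlap, as the rule requires, but KMD replicate 2, at 24.9, lies just inside the threshold.

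The other 16 genes have only a gene ID in the naming tables, and no role is given to them here. All 18 member genes are listed as protein coding, 10 of them bright in KMD through 13 probe sets and 8 bright in XS11 through 8. Of the remaining probe sets, 1 bright in KMD is assigned to 3 genes, and 32, 16 in each direction, to none.

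The largest difference among the members was that of LOC4344160 (chromosome 7). Its probe set Os.55366.1.S1_at read 1449, 1546 and 1687 in XS11 and 8.14, 6.75 and 10.6 in KMD (difference -6.32, SE 0.08). Its other probe sets did not show this. Os.55366.1.S1_x_at, whose ID differs only in the suffix, read 730, 779 and 704 in XS11 and 611, 546 and 603 in KMD (-0.32). Os.48017.1.S1_x_at read 667 to 681 in XS11 and 671 to 699 in KMD, with overlapping lines (0.02, which turned to -0.60 on the spike-in scale). The suffix x marks probes that can also bind other sequences, and s and a mark probes shared by several transcripts, of different genes or of 1 gene.

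LOC4345619 (chromosome 8) gave the same contrast between probe sets. Os.14258.1.S1_at read 353, 354 and 345 in XS11 and 10.6, 7.59 and 11.1 in KMD (difference -4.12, SE 0.08). Os.14258.1.S1_s_at read 379, 403 and 377 in XS11 and 431, 451 and 415 in KMD, a small difference the other way (0.16, which turned to -0.46 on the spike-in scale). For this gene, too, the on-off pattern belongs to 1 probe set and not to every probe set assigned to it.

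For LOC4350295 (chromosome 11) more than 1 probe set leaned the same way. Os.23471.2.S1_at read 81.9, 80.7 and 81.8 in XS11 and 21.4, 22.5 and 22.9 in KMD (difference -1.47, SE 0.08), the smallest difference among the 54 members. Os.23471.1.S1_at read 67.4 to 70.2 in XS11 and 13.7 to 25.2 in KMD (-1.41), and Os.23471.2.S1_x_at differed by -1.08. Its last probe set, Os.23471.3.S1_at, was dim in both lines, at 7.40 to 10.7 in XS11 and 7.52 to 11.2 in KMD.

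The remaining genes bright in XS11 have 1 probe set each. LOC4352852 (chromosome 12, Os.6867.1.S1_x_at) read 768, 704 and 674 in XS11 and 20.5, 21.0 and 17.5 in KMD (difference -4.56, SE 0.07). LOC4336005 (chromosome 4, Os.52728.1.S1_at) read 220, 229 and 235 against 8.05, 6.71 and 12.4 (-3.57, SE 0.10). In both genes, as the rule requires of every member, the KMD arrays lay far below every XS11 array. LOC4335079 (chromosome 4, Os.10277.1.S1_at) read 106, 105 and 109 against 20.5, 17.3 and 16.95 (-2.00, SE 0.08), the smallest difference of the 3.

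Among genes bright in KMD, LOC4331398 (chromosome 3) is 1 of 3 whose assigned probe sets, 2 each, all met the rule. Os.8823.1.S1_at read 525, 553 and 525 in KMD and 7.93, 8.71 and 11.2 in XS11 (difference 4.74, SE 0.08). Os.43929.1.S1_s_at read 564, 568 and 562 against 15.5, 14.4 and 16.8 (4.43, SE 0.06). Its 3 tested neighbours on each side along the chromosome differed by -0.40 to 0.14.

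In LOC9268613 (chromosome 10) and LOC9267537 (chromosome 4) both assigned probe sets met the rule as well. For LOC9268613, Os.20614.3.S1_x_at read 211, 203 and 206 in KMD and 3.33, 5.53 and 6.59 in XS11 (difference 3.74, SE 0.09). Os.20614.1.S1_at read 151, 167 and 148 against 21.6, 18.3 and 19.7 (2.43, SE 0.08). The probe sets of the same cluster number in the array's IDs, which groups related transcript sequences, did not all follow. Os.20614.4.S1_x_at differed by 1.04, and Os.20614.2.S1_at, assigned to LOC9267767, overlapped between the lines (-0.20). For LOC9267537, Os.31845.1.S1_at and Os.31845.1.S1_x_at, whose IDs differ only in the suffix, differed by 2.18 and 2.21. The unassigned Os.31845.2.S1_x_at differed by 1.02.

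LOC4345406 (chromosome 8) comes close to joining these genes. Os.25556.1.S1_x_at read 163, 186 and 178 in KMD and 16.6, 21.5 and 19.2 in XS11 (difference 2.63, SE 0.09). Its second probe set, Os.25556.1.S1_at, read 258, 236 and 250 against 27.9, 27.2 and 28.6 (2.73, SE 0.07), and so is no member only because its XS11 arrays lie just above 25.

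In 3 other genes bright in KMD the second probe set moved little. LOC4348229 (chromosome 10) read 520, 543 and 525 in KMD and 8.04, 7.57 and 9.38 in XS11 on Os.18580.2.S1_at (difference 4.79, SE 0.07). On Os.18580.1.S1_at it read 818, 822 and 832 against 610, 587 and 591 (0.46, which turned to -0.16 on the spike-in scale). Both lines thus gave a clear signal on that probe set. LOC4340325 (chromosome 6) read 248, 263 and 257 against 9.80, 7.56 and 8.77 on Os.10266.1.S1_at (3.75, SE 0.08), but 56.6 to 61.9 against 33.7 to 44.3 on Os.37590.1.S1_at (0.53, which turned to -0.088 on the spike-in scale). LOC4348283 (chromosome 10) differed by 2.13 on Os.18714.1.S1_a_at and by 0.27 on Os.18714.1.S2_at, where KMD read 25.1 to 30.3 and XS11 19.5 to 23.7. That difference of 0.27 turned to -0.35 on the spike-in scale.

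The last genes bright in KMD rest on 1 probe set each. LOC4338334 (chromosome 5, Os.8610.1.S1_at) read 225, 225 and 214 in KMD and 9.58, 10.9 and 14.7 in XS11 (difference 3.35, SE 0.09). LOC4352855 (chromosome 12, Os.49466.1.S1_at) read 118, 131 and 136 against 11.5, 10.3 and 10.2 (2.67, SE 0.08). LOC4330594 (chromosome 2, Os.52768.1.S1_at) read 118, 114 and 112 against 16.7, 19.0 and 18.1 (2.11, SE 0.08). The rule fixes the gap between the lines in these 3 genes, as in every member.

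Os.12691.1.A1_x_at is assigned to 3 genes, LOC107276358, LOC4347171 and LOC4332697, so its signal cannot be placed on one of them. It read 700, 729 and 788 in KMD and 19.3, 23.9 and 20.6 in XS11 (difference 4.53, SE 0.07). The 6 other probe sets of these genes all had negative differences, from -0.83 to -0.14, and in 5 of them KMD lay below XS11 without overlap. Os.12691.1.A1_a_at, whose ID differs only in the suffix, read 2453, 2684 and 2528 in KMD and 3012, 3070 and 2944 in XS11 (-0.24).

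Over the whole set, 24 had at least 1 other probe set of the same gene or cluster number and 30 had none. The other probe sets that are no members numbered 30, 1 of them of a left-out gene. Of these, 17 differed in the direction of their member with no overlap between the lines, 7 differed the opposite way with no overlap, and 6 overlapped. Over all tested probe sets 48.8% did not overlap between the lines, 23.1% with KMD higher and 25.7% with XS11 higher, and 1.78% did so by at least 2-fold. Some of the 30 were too dim to be tested, so these shares do not cover the same kind of probe sets. The contrast is the one that chose the members, so nothing is read from this comparison. A difference of at least 2-fold in the direction of the member was found in 11 of the 30. Among the 12 whose ID differs from that of the member only in the suffix, 9 went with it, 7 of them by at least 2-fold, and 3 went against it. Their differences, signed in the direction of the member, ran from -0.82 to 3.42 with a median of 1.04. In 2 of the 30 the difference was as large as that of the member. Of these, Os.6094.1.S1_at of the left-out gene met both thresholds itself and is no member only because its gene is left out. It is also counted in the 17 and the 11.

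**Figure D4:**
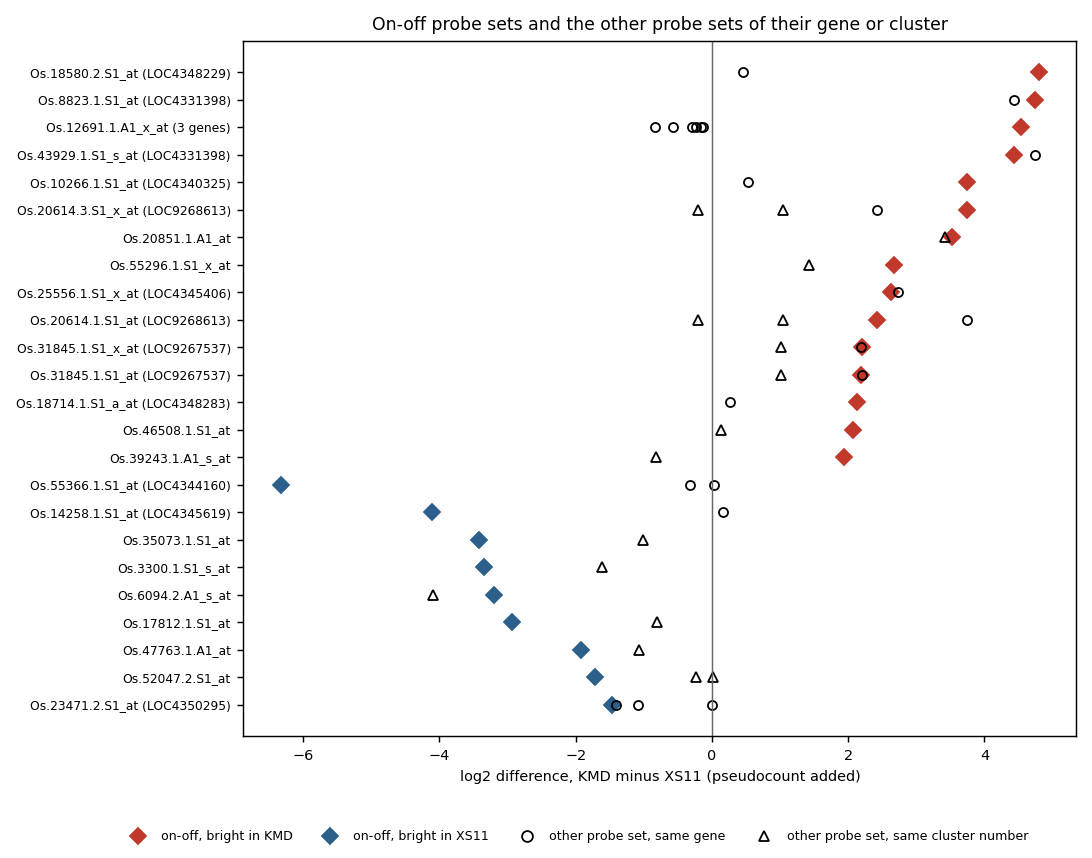
Difference between the lines (KMD minus XS11, log2 scale with the pseudocount) for the 24 on-off probe sets that have another probe set, as diamonds, and for those others, as open circles (same gene) or triangles (same cluster number). A few open symbols lie on or near their diamond, as for LOC4331398 and LOC4345406, and many lie near 0, as for LOC4344160 and LOC4348229. An open symbol on the row of LOC4331398, LOC9268613 or LOC9267537 can itself be an on-off probe set.

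A further 32 members have no gene. Os.18631.1.S1_at read 615, 614 and 653 in KMD and 3.29, 4.21 and 3.31 in XS11 (difference 5.43, SE 0.07), the largest difference among members bright in KMD. Os.14497.1.S1_at read 620, 665 and 588 against 12.6, 17.9 and 19.1 (4.52, SE 0.09). Next were Os.55294.1.S1_at, Os.20851.1.A1_at, OsAffx.16638.1.S1_at and Os.27208.1.S1_at, with differences from 2.78 to 3.87. Of these 6, only Os.20851.1.A1_at has another probe set, Os.20851.1.A1_x_at, which read 606, 574 and 581 in KMD and 42.7, 43.2 and 47.9 in XS11. Its difference of 3.42 was close to the 3.52 of the member.

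Bright in XS11 with no gene, OsAffx.20641.1.S1_at read 588, 551 and 551 in XS11 and 11.0, 10.7 and 11.2 in KMD (difference -4.70, SE 0.06). Os.18403.1.S1_at read 357, 308 and 334 against 4.54, 7.26 and 3.00 (-4.43, SE 0.10). The next 4, Os.35073.1.S1_at, Os.3300.1.S1_s_at, OsAffx.17626.1.S1_s_at and Os.6094.2.A1_s_at, differed by -3.42 to -3.20. Companion probe sets of 3 of these leaned the same way. Os.35073.1.S1_x_at differed by -1.01 and Os.3300.1.S1_at by -1.62. Os.6094.2.A1_s_at shares its cluster number with Os.6094.1.S1_at of LOC4350847, a left-out gene, which read 257, 257 and 252 in XS11 and 3.47, 7.47 and 2.56 in KMD. In 1 case, Os.39243.1.A1_s_at, bright in KMD by 1.93, the companion Os.39243.1.A1_x_at went the other way, at 500 to 516 in KMD and 870 to 962 in XS11 (-0.82).

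Fewer of the members than of other bright probe sets carry a gene, a difference given as a description with no test. Exactly 1 gene was assigned to 38.9% of the members, close to the 39.2% of all probe sets, but to 71.7% of the 17599 probe sets that had all arrays of a line at 80 or more. IDs that begin with OsAffx made up 20.4% of the members, 14.6% of those bright probe sets and 44.6% of all. Suffixes a, s or x were on 24.1% of the members, 28.4% of the bright probe sets and 19.9% of all.

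The 18 member genes lie on 11 of the 12 chromosomes in the RefSeq assembly used for names. Chromosome 10, with 899 of the 17905 array genes that have a chromosome, holds 3, LOC4348229, LOC4348283 and LOC9268613, all bright in KMD. Chromosome 4, with 1569, also holds 3, of which LOC4335079 and LOC4336005 were bright in XS11 and LOC9267537 in KMD. Chromosome 1, with 2649 genes on the array, holds 0. Only LOC4352852 and LOC4352855 on chromosome 12 stand side by side, with 2 annotated genes between them and no tested one. They were on-off in opposite directions, -4.56 and 2.67. Each was read by 1 probe set, and that of LOC4352852 has the suffix x, for probes that can also bind other sequences. On the far side of LOC4352852, with 3 annotated genes between, ADF11, an actin-depolymerizing factor, read 1527, 1632 and 1627 in KMD and 5209, 5360 and 5318 in XS11 (-1.72, limma adjusted p = 5e-13). Between ADF11 and LOC4352852, LOC4352851 rose by 0.33, so the changes along this stretch did not share a direction. On the spike-in scale, shifted by 0.62, LOC4352851 turns to lower in KMD.

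Around LOC4335079 on chromosome 4, CPS4 read 24.5, 30.0 and 22.6 in KMD and 108, 113 and 108 in XS11 (-1.72, limma adjusted p = 4.17e-09). CPS4 is a diterpene cyclase of momilactone phytoalexin synthesis, and 7 annotated genes lie between it and LOC4335079. ARP9, also on that side, fell by 0.91 on the log2 scale (limma adjusted p = 1.31e-07). LOC4335077, on the other side, rose from 85.4, 82.8 and 72.8 in XS11 to 183, 198 and 201 in KMD (1.17, limma adjusted p = 2.24e-08). Other large changes next to a member were in LOC4348230, directly beside LOC4348229 on chromosome 10 and higher in KMD by 1.28, and in LOC4350299 near LOC4350295, at -1.54.

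Around OsC3H40 the tested genes changed little. Its 6 nearest tested neighbours differed by -0.16 to 0.46, and 2 of them were called by limma, LOC4340260 at 0.46 (adjusted p = 6.8e-06) and LOC4340267 at 0.30 (adjusted p = 0.0124). Both turned on the spike-in scale, to -0.16 and -0.32. Taking the 3 nearest tested genes on each side of every member gene, 102 different neighbours that are no members were read. Of these, 26 rose, 36 fell and 40 did not pass, which is 60.8% called, beside 56.2% over all genes read by their brightest probe set. Changes of at least 2-fold were called in 5 of the 102 (4.90%), beside 2.41% over all genes. The median absolute difference was 0.20 among the neighbours and 0.19 over all genes.

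**Figure D5:**
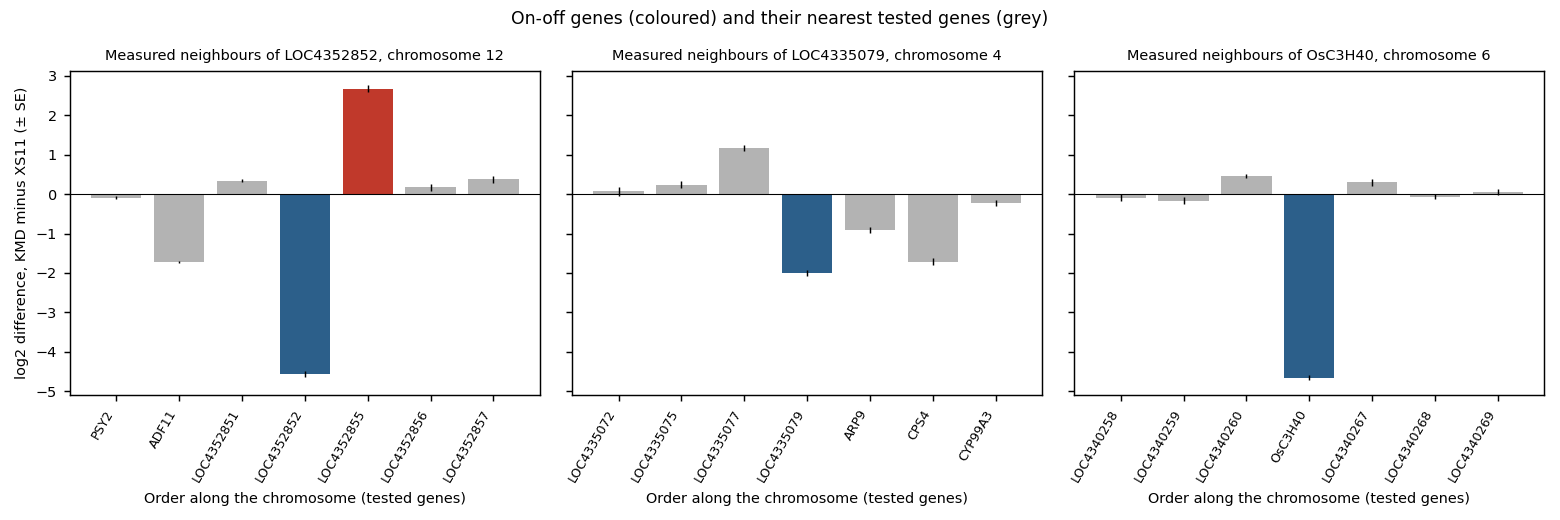
Difference between the lines (KMD minus XS11, log2 scale with the pseudocount, ± SE from limma) for 3 on-off genes and their nearest tested genes in chromosome order, with on-off genes in colour and others in grey. LOC4352852 (-4.56) and LOC4352855 (2.67) face in opposite directions, CPS4 (-1.72) lies near LOC4335079 (-2.00), and the neighbours of OsC3H40 lie between -0.16 and 0.46.

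Probe sets near the thresholds differ little across them. Just inside, OsAffx.16322.1.S1_at had its lowest XS11 array at 80.01, and Os.12691.1.A1_x_at and OsAffx.25720.1.S1_at had their highest XS11 arrays at 23.9. Just outside, Os.51985.1.S1_at of LOC4350779 had its lowest XS11 array at 79.0 and its highest KMD array at 19.8. OsAffx.20651.1.S1_at read 183, 194 and 192 in KMD and missed through 1 XS11 array at 26.5. With thresholds of 60 and 30 the counts became 48 bright in KMD and 48 bright in XS11, and with 100 and 20 they became 18 and 14.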

How the data were processed

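The authors deposited 1 table of 57381 probe sets with an intensity on a linear scale for each array. MAS5 is named in the submitters' processing notes. Its version and scaling target, and whether a normalization followed, are not given there. Detection calls were not analysed here. Arrays were grouped by their titles, 3 per line, and all 6 columns were used.

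Genes came from a platform annotation, by gene ID, and names, chromosomes and neighbours from the RefSeq table of assembly ASM3414082v1. No build is named for the values, so no coordinates are given. The brightest 60% of probe sets by mean log2 signal (pseudocount 11.17), without 123 control probe sets and with all 64 reporter probe sets, were tested by limma (eBayes with a trend, two-sided, Benjamini-Hochberg over 34404 probe sets, threshold 0.05), with no replicate block. The fit was tested on simulated data. Members, lists and comparisons were chosen with earlier results of these data known. Named were members with an informative symbol, the 6 largest of each other kind and direction, and members at the thresholds. Other members and neighbouring genes were picked after their values were seen. Promoter and protein sequences were not used here. Alternatives were pseudocounts, filters, scalings, thresholds, a replicate block and leaving out each array. The number of arrays limits the precision. The fits used limma 3.58.1 in R 4.3.3, and the tables pandas 2.3.3.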

Additional observations from a re-analysis of the deposited data

How the results depend on the processing

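The counts of 30 members bright in KMD and 24 in XS11 became 48 and 48 with thresholds of 60 and 30, 18 and 14 with 100 and 20, and 18 and 42 after scaling to equal spike-ins. Without each replicate in turn they ran from 30 to 31 and from 24 to 25. Leaving out an array only loosens the rule, so no member could be lost and these counts could not fall. Quantile normalization and scaling to equal medians each gave 30 and 22. Both kept all 30 members bright in KMD but only 21 of the 24 bright in XS11. Plain _at probe sets gave 22 and 19, and the left-out genes put back 32 and 27. The median log2 difference of members bright in KMD became 3.46 with a pseudocount of 1, 2.32 with the 25th percentile and 2.04 on the spike-in scale. For those bright in XS11 it became -3.92, -2.66 and -3.68. Over all probe sets, centring on the spike-ins moved the calls from 13660 to 32924, with 324 higher in KMD and 32600 higher in XS11. By construction this subtracts the spike-in difference from every probe set.

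Of the alternative values for single members, 432 moved by less than the replicate SD and 162 by more. The replicate block gave 12450 calls, and deviations of same-numbered arrays correlated at -0.24, -0.01 and -0.25. These values gave no sign of pairing by number, but they cannot show whether same-numbered arrays were handled together. The count of other probe sets that differ in the direction of their member, 17, was 17 to 18 under the scalings and left-out arrays tried. Scaling to the spike-ins kept 14 of the 17, lost 3 and gained 4, and each other setting kept all 17. For the left-out arrays this was fixed in advance, as lines that do not overlap cannot overlap on fewer arrays. On the spike-in scale the differences of 7 of the 30 other probe sets turned sign, to -0.16 (Os.18580.1.S1_at), -0.088 (Os.37590.1.S1_at), -0.35 (Os.18714.1.S2_at), -0.49 (Os.46508.2.S1_at), -0.60 (Os.48017.1.S1_x_at), -0.46 (Os.14258.1.S1_s_at) and -0.60 (Os.52047.1.S1_x_at). The promoter motif search was not run. Batch and line cannot be told apart, as no batch is given.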
